A study of Mus musculus with 20 samples.

Results

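The Peg3-Usp29-Zim1 domain is an imprinted gene cluster on proximal mouse chromosome 7. It was taken as the promoter windows on chromosome 7 whose start lies between 6600000 and 7000000 (build GRCm39), a choice by position that used no measured value. There were 17 such windows among the 54034 of the deposited table. Each window is 3500 bp long and covers 3000 bp before and 500 bp after a gene start. DNA methylation was read by bisulfite sequencing of single mouse blastocysts, and each value is the percent methylation of 1 window in 1 embryo. The control group held 10 blastocysts (replicates 1 to 10) of control genotype. The Padi6-mutant group held 10 blastocysts (replicates 11 to 20) that developed from oocytes with the P620A allele of Padi6, and the series describes them as embryos that got past an early cleavage arrest. PADI6 is made in the oocyte, where it is part of the subcortical maternal complex, and is inherited by the early embryo from the egg. Mother, litter, strain, sex, embryo age and the genotype of the father were not given in the sources used here. Each blastocyst counts as 1 replicate, some may share a mother, and the tests speak only of the scatter among these blastocysts.

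At imprinted genes only the copy from one parent is active, and the choice is marked by DNA methylation laid down in the egg or the sperm. The promoter shared by Peg3 and Usp29 is methylated in the oocyte, and this mark is kept on the maternal copy through the wave of demethylation after fertilisation, with DNMT1 and UHRF1 as the maintenance machinery. Peg3 encodes a large zinc finger protein and is expressed from the unmethylated paternal copy. Usp29 encodes a protein of the ubiquitin-specific protease family, runs in the opposite direction from Peg3 and is also paternally expressed. Zim1, a zinc finger gene next to Peg3, is expressed mainly from the maternal copy.

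The windows carry no gene names. In the RefSeq gene table, which is on build GRCm38.p6, the genes follow each other in the order Zim2, Zim1, Peg3 and Usp29, with Peg3 and Usp29 head to head. Taking this order as given, names were assigned by position to the 5 lowest windows of the domain. The lowest pair are called the Zim2 window (6664868 to 6668367) and the Zim1 window (6698950 to 6702449). Of the 3 windows above them, the one with the highest start is called the Peg3 window (6732931 to 6736430). The others are called the Usp29 windows (6730577 to 6734076 and 6730597 to 6734096). By the window rule the Peg3 start then lies at 6733430, and the nearer Usp29 start 147 bp away. These names rest on gene order and on the known place of the shared promoter. The Usp29 windows overlap each other by 3480 bp and the Peg3 window by 1146 and 1166 bp, so the 3 windows share reads and are not independent. The remaining 12 windows, on the Usp29 side, are given by position.

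The promoter sequences show what lies around these starts. RefSeq promoters (build GRCm38.p6, another build than that of the windows, 250 bp before to 50 bp after the gene start) were matched by symbol for Zim2, Zim1, Peg3 and Usp29. They are printed 5′ to 3′ on the strand of the gene for Peg3 (chr7:6730370-6730669, minus strand) and for Zim1 (chr7:6696383-6696682, minus strand), with CG dinucleotides, the sites at which methylation is read, in capitals.
Peg3: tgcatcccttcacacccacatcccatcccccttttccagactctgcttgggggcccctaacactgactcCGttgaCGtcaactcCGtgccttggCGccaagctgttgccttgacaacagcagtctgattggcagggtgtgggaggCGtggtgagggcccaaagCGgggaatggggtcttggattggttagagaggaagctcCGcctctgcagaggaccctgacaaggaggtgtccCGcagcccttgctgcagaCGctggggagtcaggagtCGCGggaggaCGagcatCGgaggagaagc
Zim1: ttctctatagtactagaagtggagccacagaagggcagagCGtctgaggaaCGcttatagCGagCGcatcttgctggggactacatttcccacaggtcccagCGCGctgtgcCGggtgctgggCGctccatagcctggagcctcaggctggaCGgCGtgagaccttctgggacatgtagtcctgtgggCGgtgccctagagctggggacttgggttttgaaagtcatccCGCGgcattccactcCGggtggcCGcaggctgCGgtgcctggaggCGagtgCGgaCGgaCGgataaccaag
The Peg3 promoter holds 13 CG dinucleotides in 300 bases, and 37.9% of the 32851 RefSeq promoters hold at least as many. The Usp29 promoter holds 17 and is the reverse complement of the Peg3 promoter over 263 bases. The Zim1 promoter holds 20, and the Zim2 promoter 9. The motif TGCCGC, known from ZFP57, a protein that protects imprints in the early embryo, was searched on both strands. It is absent from the Peg3, Usp29 and Zim2 sequences and occurs once in that of Zim1, on the reverse strand, while 11.6% of all promoters hold it. The motif AANATGGCG, known from YY1, was absent from all 4 sequences and is held by 2.38% of promoters. A 300-base window covers a small part of a 3500-bp window, and a missing match says only that these letters are not in it.

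Coverage differed between embryos and limits every value below. Read depth is unknown, since the table holds no counts. Densely covered embryos, here those with a value in at least 20000 windows, were 6 controls (37049 to 46950 windows) and 3 mutants (38549 to 43812). The 4 sparsely covered controls had 4984 to 17002 windows and the 7 sparsely covered mutants 2875 to 13847. In the domain, densely covered embryos had a value in 11 to 16 of the 17 windows. Control replicate 9 and mutant replicate 17 had none. Coverage and group therefore moved together, and values for densely covered embryos alone are given beside the main results.

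The shared Peg3/Usp29 promoter was methylated in both groups, and no difference between them was detected. In the Peg3 window the control embryos ranged from 0% to 100% around a median of 30.4% (n = 8). The 5 mutant embryos with a value stood at 40.0% in replicates 11 and 16, 25.8% in replicate 12, 21.4% in replicate 20 and 8.47% in replicate 14. Every mutant value lay within the control range, but that range spans the whole scale, so none could lie outside it. No mutant embryo was at 0% in this window, but replicate 18, at 0% in both Usp29 windows, had no value here. Both control extremes were sparsely covered embryos, replicate 8 at 0% and replicate 7 at 100%. The 6 densely covered controls lay between 19.4% and 55.2%, and mutant replicate 14 lay below all of them.

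The Peg3 window averaged 37.8% ± 29.9 (SD, n = 8) over control blastocysts against 27.1% ± 13.4 (SD, n = 5) over mutant ones. The difference, -10.6 percentage points (SE 13.6, 95% interval -40.2 to 19), did not pass the test (limma adjusted p = 0.854, unadjusted exact permutation p = 0.527). Without control replicate 7, the embryo at 100%, it was -1.73 points, and with quantile normalization -1.67 points. Among densely covered embryos it was -8.93 points (33.7% against 24.8%, 95% interval -29.9 to 12, limma adjusted p = 0.862).

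In the Usp29 window from 6730577 the control embryos ran from 0% to 46.2% with a median of 23.3% (n = 7), and the mutant embryos from 0% to 40.0% with a median of 21.9% (n = 6). The groups overlapped over almost their whole range, with 1 embryo at 0% in each, both sparsely covered (control replicate 8 and mutant replicate 18). The means were 26.4% ± 15.7 (SD, n = 7) and 19.1% ± 14.8 (SD, n = 6), and mutant minus control was -7.32 points (SE 8.18, limma adjusted p = 0.841; unadjusted exact permutation p = 0.417). Its 95% interval, -25.1 to 10.4 points, ended just short of the -26.4 points that a complete loss from the control mean would be. That mean is itself an estimate, and without mutant replicate 16 the difference was -11.5 points (SE 8.03). The narrow margin of the interval therefore allows no conclusion by itself. The single values show that complete loss in every mutant embryo was not seen. Of the mutant embryos, 1 of 6 was at 0% in this Usp29 window, and none of the 5 with a value in the Peg3 window. In the Peg3 window, where controls were spread from 0% to 100%, the wide interval did include the -37.8 points of a complete loss. In this Usp29 window the direction flipped with quantile normalization between embryos (0.92 points), and the difference was -2.28 points with coverage as a covariate. Among densely covered embryos the difference was -12.2 points (30.8% against 18.5%, limma adjusted p = 0.859).

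The Usp29 window from 6730597, which differs from the previous one by 20 bp at each end, averaged 26.5% ± 15.6 (SD, n = 7) over control blastocysts against 22.0% ± 16.6 (SD, n = 6) over mutant ones. Mutant minus control was -4.50 points (SE 8.58, 95% interval -23.1 to 14.1, limma adjusted p = 0.894). It flipped to 3.91 points with quantile normalization and to 2.41 points with coverage as a covariate, and it was -0.10 points without mutant replicate 18. Among densely covered embryos it was -6.52 points. Mutant replicate 11 stood at 25% in the first Usp29 window and at 40.0% in the second, a step of 15.0 points for a shift of 20 bp. This was the widest gap of an embryo between the 2 windows.

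**Figure D1:**
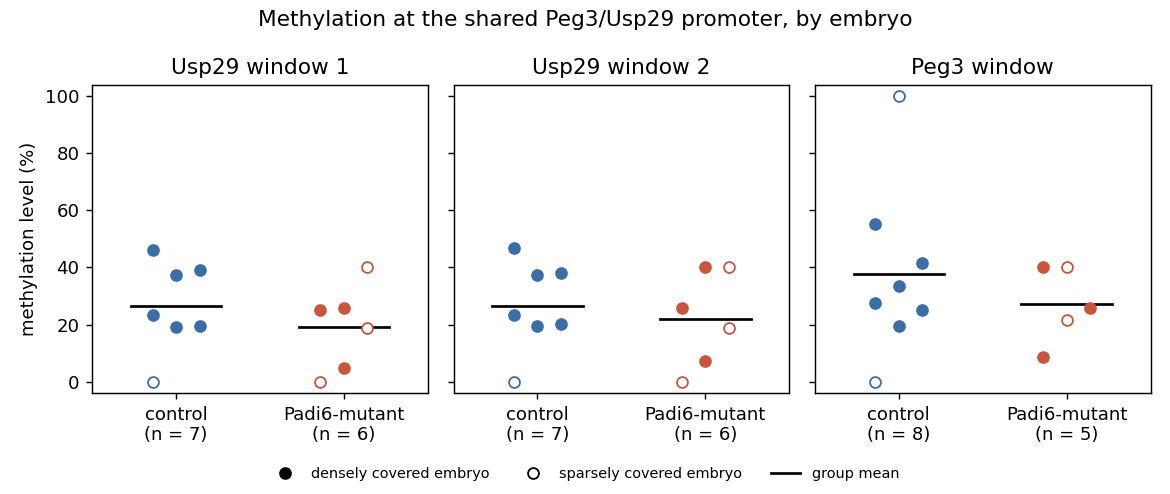
Methylation level in percent of single embryos in the Usp29 windows from 6730577 (window 1) and 6730597 (window 2) and in the Peg3 window, for control and Padi6-mutant blastocysts. Filled points are densely covered embryos, open points sparsely covered ones and lines group means. The control range reaches down to 0% in each window through a sparsely covered embryo, replicate 8. Mutant replicate 14 lies below every densely covered control in each window.

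The mean of the shared-promoter windows of an embryo gives 1 value per embryo. Among densely covered controls it ran from 19.4% to 49.3% with a median of 29.0% (n = 6). The 3 densely covered mutants stood at 35.0% (replicate 11), 25.8% (replicate 12) and 6.83% (replicate 14). Mutant replicates 11 and 12 thus lay inside the control range, and replicate 14 below it. Of the sparsely covered mutants, replicate 16 had 40.0%, replicate 20 had 19.6% and replicate 18 had 0.0%. Over all embryos with a value it averaged 36.3% ± 29.6 (SD, n = 8) for controls against 21.2% ± 15.6 (SD, n = 6) for mutants, -15.1 points. Without control replicate 7, which has a value in 1 of the 3 windows, the difference was -6.02 points, and among densely covered embryos -9.23 points. This is a mean over chosen windows and was not tested.

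The embryo that was lowest among the densely covered ones at the promoter was not low elsewhere. Mutant replicate 14 had the highest mean over all its windows of the mutant group (17.6%), whereas mutant replicate 12, at 25.8% on the promoter, had the lowest of all 20 embryos (7.16%). Within an embryo, the place of the promoter can be read from the share of its own windows that lie lower. In densely covered controls 70.6% to 95.6% of the windows of an embryo lay below its shared-promoter windows. The share was 81.5% to 90.5% in mutant replicate 11 and 92.2% in replicate 12. In replicate 14 it was 42.0% to 50.1%, so the promoter of that embryo was at the middle of its own distribution.

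**Figure D2:**
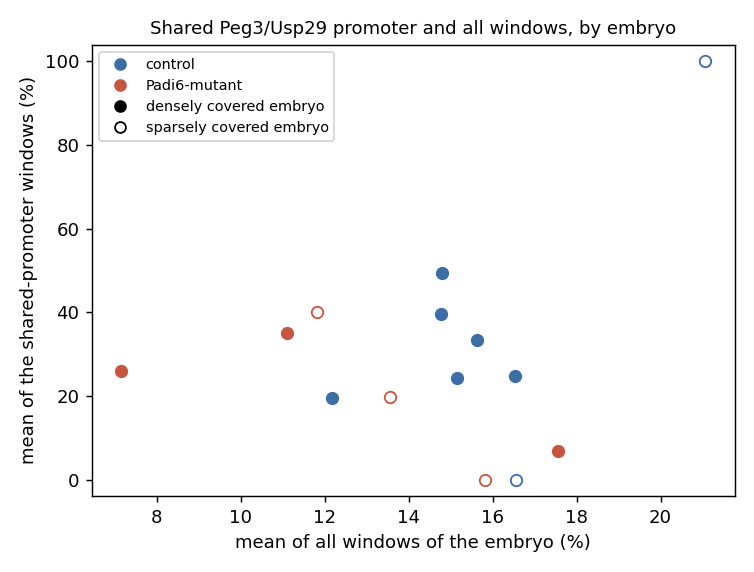
Mean level of the shared-promoter windows against the mean of all windows of the same embryo, both in percent, for the 14 embryos with a value (filled, densely covered; open, sparsely covered). Mutant replicate 12 is the point farthest to the left, at 7.16% and 25.8%, and mutant replicate 14 the filled point at 17.6% and 6.83%.

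A further property, methylation above 0% in each of the 9 densely covered embryos, was shared by the 3 promoter windows. Of the 5 domain windows with a value in all 9 embryos, these 3 (which overlap) were above 0% throughout. Among all 17634 windows with a value in the 9 embryos, 1046 (5.93%) had this property. In the flanking chromosome 7 windows 2 of 15 did, and these also overlap each other. The flanks were the 72 windows whose start lies within 1 Mb on either side of the domain.

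The level of the promoter was higher than that of the flanks in most embryos of both groups. The promoter minus the flank mean of the same embryo was above 0 in 7 of 8 control and 4 of 6 mutant embryos. Among densely covered embryos it ran from 2.94 to 36.2 points in control embryos and was 25.8, 21.4 and -10.5 points in mutant replicates 11, 12 and 14. The means were 14.5 ± 13.4 points (SD, n = 6) and 12.2 ± 19.8 points (SD, n = 3). Over all embryos they were 17.5 ± 29.8 points (SD, n = 8) and 1.77 ± 40.2 points (SD, n = 6), -15.7 points apart, or -0.38 points without mutant replicate 18, whose flank mean of 75.0% comes from 2 windows. The flanks themselves stood at 17.3% ± 5.02 (SD, n = 6) in densely covered controls against 10.3% ± 6.47 (SD, n = 3) in densely covered mutants. Over all embryos they stood at 17.7% ± 5.20 and 16.9% ± 21.6 (SD, n = 10 each), and mutant minus control went from -0.81 to -7.26 points without mutant replicate 18. None of these differences was tested.

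Zim1, the maternally expressed zinc finger gene, had low methylation in both groups. In its window 3 of 6 control embryos were at 0%, and the others stood at 3.12% (replicate 8), 20.0% (replicate 2) and 30.0% (replicate 10). Of the 6 mutant embryos 4 were at 0%, and replicates 11 and 14 had 8.0% and 19.2%. The groups overlapped. The means were 8.85% ± 13 and 4.54% ± 7.88 (SD, n = 6 each), and mutant minus control was -4.32 points (SE 6.04, 95% interval -17.6 to 8.93, limma adjusted p = 0.862). It was -0.09 points without control replicate 10, -0.92 points among densely covered embryos, -1.38 points with coverage as a covariate and -8.73 points with quantile normalization. The 3.12% of control replicate 8 is the value of the domain that was deposited as a whole number above 100 and divided by 1000; without it the difference was -5.46 points. The Zim2 window, assigned to a gene that RefSeq lists as noncoding in the mouse, averaged 17.6% ± 19 (SD, n = 5) over controls against 16.7% ± 28.9 (SD, n = 3) over mutants. Here 2 of the 3 mutant embryos were at 0% and the third at 50.0%.

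Across the domain, 13 of the 17 windows were measured in 3 or more embryos per group and were tested. None passed an adjusted p of 0.05 in limma with Benjamini-Hochberg adjustment over all 37645 tested windows, against 14 (0.0372%) in the whole table. At an unadjusted p under 0.05, 1 domain window was higher in mutant embryos and 0 were lower, with 1.85% of all tested windows higher and 3.9% lower. The mean was lower in mutant embryos in 9 of the 13 windows (69.2%), beside 55.9% of all tested windows. These windows overlap in part, the shared-promoter windows among them, so they are not independent counts. The median difference over the 13 windows was -0.91 points, beside -1.07 points over all tested windows and -1.20 points over the 41 tested flank windows. The exact permutation test, adjusted over all tested windows, called 0 windows in the domain and 0 in the table, where 1801 had an unadjusted p under 0.05. The few embryos in a window limit the lowest p that this test can reach, so its 0 calls allow no conclusion.

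**Figure D3:**
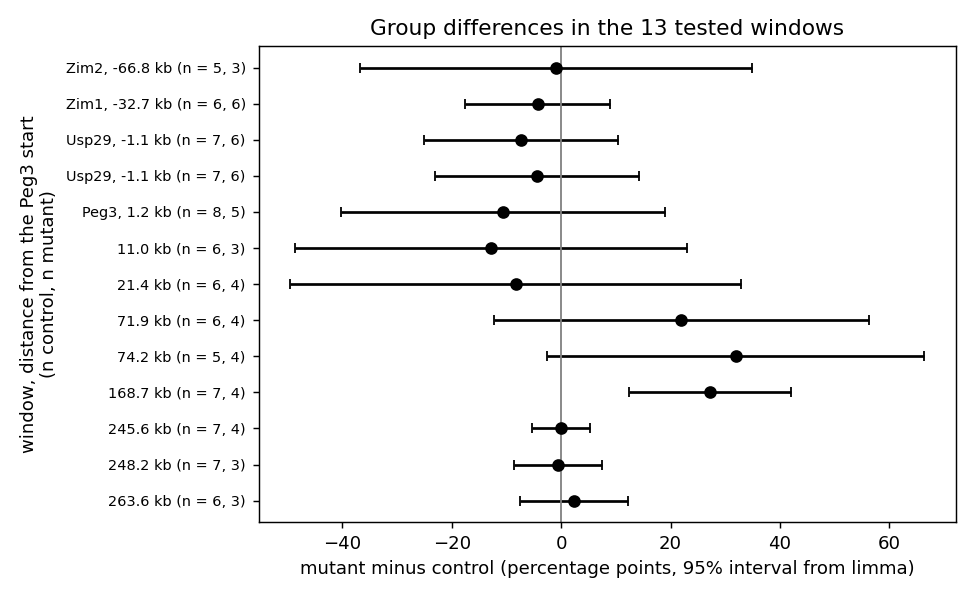
Mutant minus control difference in percentage points, with 95% intervals from limma, in the 13 tested windows. Windows are named by gene where one was assigned and by the distance of their centre from the Peg3 start in kb; the interval of the window at 168.7 kb, from 12.5 to 42.1 points, lies above 0 before adjustment.

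The window with the lowest p was on the Usp29 side, from 6900351 to 6903850, and was singled out after its values were seen. Of 7 control embryos 5 were at 0%, and replicates 1 and 2 stood at 12.5% and 11.1%. The 4 mutant embryos had 10.0% (replicate 11), 25% (replicate 12), 50.0% (replicate 13) and 37.5% (replicate 14). None of the mutant embryos was at 0%, and 3 of 4 lay above the highest control. The means were 3.37% ± 5.77 (SD, n = 7) and 30.6% ± 17.1 (SD, n = 4). The difference of 27.3 points (SE 6.67) failed the correction (limma adjusted p = 0.374, unadjusted p = 0.00206; unadjusted exact permutation p = 0.00909). It stayed positive in densely covered embryos (19.4 points), with quantile normalization (34.9 points) and with any single embryo left out (20.8 to 34.1 points, limma adjusted p from 0.144 to 0.552).

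Nearer to the promoter, overlapping windows from 6803586 and 6805850 also had higher means in mutant embryos without passing the test. In the window from 6805850 the 5 control embryos were at 0% except for replicate 2 at 6.67%. The mutant embryos stood at 0% (replicate 11), 5.88% (replicate 12), 50.0% (replicate 14) and 76.9% (replicate 15). The difference was 31.9 points (SE 15.0, 95% interval -2.54 to 66.3, limma adjusted p = 0.834), and it was 17.3 points without mutant replicate 15 and 16.4 points among densely covered embryos. In the window from 6803586 the difference was 22.0 points (SE 15.2, limma adjusted p = 0.834) and 7.35 points without replicate 15, or 7.59 points among densely covered embryos.

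The other tested windows on the Usp29 side split by level. The windows from 6742645 and 6753042 had control means of 29.5% ± 21.5 and 20.8% ± 33.2 (SD, n = 6 each) and mutant means of 16.7% ± 28.9 (SD, n = 3) and 12.5% ± 25 (SD, n = 4). In both the groups overlapped and values were spread from 0% to at least 50.0%. The 3 tested windows at the far end, from 6977245, 6979920 and 6995299, were nearly unmethylated, with control means of 1.10%, 1.90% and 3.08% and mutant means of 1.04%, 1.28% and 5.42%. Their intervals were the narrowest of the domain, for example -5.39 to 5.27 points in the window from 6977245.

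The 4 untested windows had too few embryos with a value. The window from 6809000 had 0% in 2 control embryos and 0%, 20.0% and 27.3% in 3 mutant embryos. The window from 6842621 had 0% to 30.0% in 4 control embryos and 0% and 50.0% in 2 mutant embryos. The window from 6981202 had 0% to 57.1% in 4 control embryos and 50.0% in both mutant embryos. The window from 6891037 had 50.0% in 3 control embryos, 0% in control replicate 1 and no value in a mutant embryo.

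**Figure D4:**
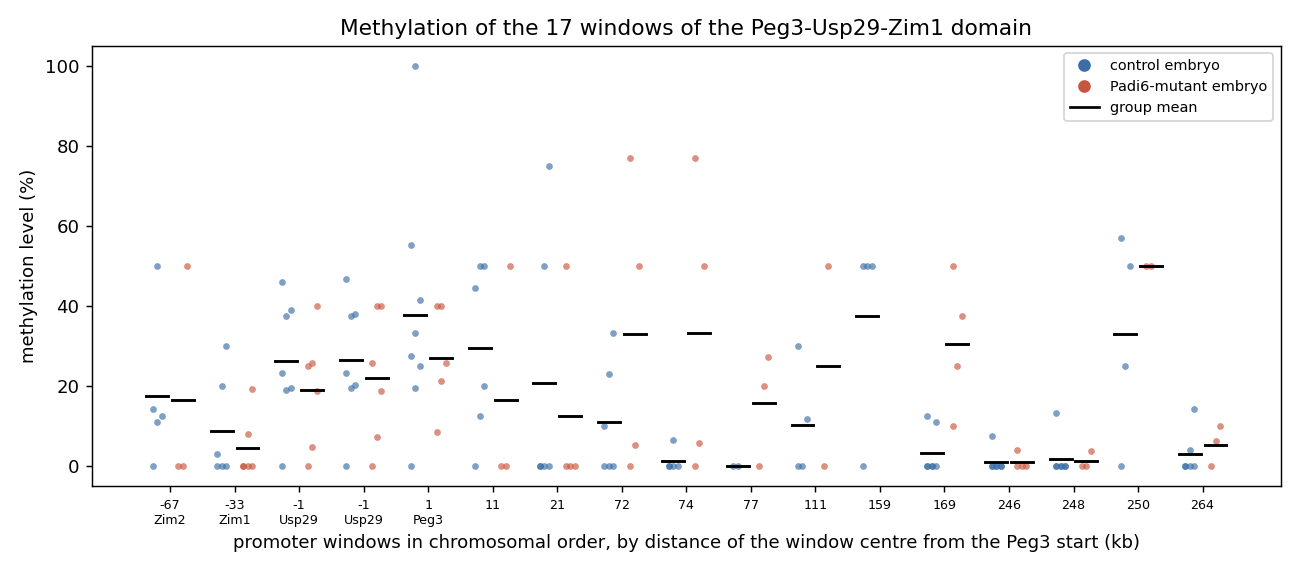
Methylation level in percent of every embryo (points) and group means (lines) in the 17 windows, in chromosomal order and labelled by the distance of the window centre from the Peg3 start in kb. Control means are 26.4% to 37.8% in the 3 promoter windows and 1.10% to 3.08% in the 3 tested windows at the far end.

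By control mean, the Peg3 window stood highest in the domain (37.8%), followed by the windows from 6891037 (37.5% ± 25, SD, n = 4), 6981202 (33.0% ± 26.0, SD, n = 4) and 6742645 (29.5%), and then by both Usp29 windows. These neighbours in the order lay within the SD of each other. The first place of the Peg3 window rests on control replicate 7, without which its control mean was 28.9% ± 17.4 (SD, n = 7), below the 3 windows that follow. As 1 value per embryo, the plain mean over the domain was 15.4% ± 7.87 (SD, n = 9) for controls against 21.0% ± 15.7 (SD, n = 9) for mutants. The highest mutant means came from sparsely covered embryos, replicate 15 with 50.8% over 5 windows and replicate 16 with 40.0% over 3. The windows of replicate 16 were those of the shared promoter, where replicate 15 had no value. The domain means thus cover different windows in different embryos, and level and choice of windows are mixed in them. In densely covered embryos the order was the other way, 16.8% ± 5.40 (SD, n = 6) against 15.2% ± 5.23 (SD, n = 3). These means were not tested.

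Windows outside the domain were ranked by their Pearson correlation with the shared-promoter mean over the 14 embryos that share a value, among 51 windows that could be compared. The most alike were the windows from 44741484 on chromosome 19 (r = 0.85), 59855568 on chromosome 9 (0.82), 25736761 (0.79) and 25101002 (0.79) on chromosome 2, and 40159219 on chromosome 17 (0.74). Without control replicate 7, whose only promoter value was 100%, r was 0.48, 0.46, 0.36, 0.37 and 0.0044 over 13 embryos, so the likeness rests largely on that embryo. The values of an embryo come from 1 library and share its depth, and the correlations are a description.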

How the data were processed

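DNA methylation of 20 single blastocysts was analysed, 10 control and 10 Padi6-mutant by their labels. The authors trimmed reads with Trim Galore 0.4.4 and used Bismark 0.18.2 with the GRCm39 (mm39) genome, per the submitters' processing notes, and deposited a table of percent methylation per promoter window and embryo. How calls were combined in a window and any coverage minimum is not stated in the sources used here, and no read counts are in the table.

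Of 54080 rows, 46 identical copies were dropped. Of 491705 values, 1594 (0.324%), of which 1 lay in the domain, were whole numbers above 100. They were read as percents without their decimal point and divided by 1000. Untransformed percents were compared with limma 3.58.1 (R 4.3.3, lmFit and eBayes, default settings) over all windows measured in 3 or more embryos per group, with Benjamini-Hochberg adjustment over all of them and a threshold of 0.05. A minimum of 7 embryos per group would have left no domain window. The two-sided exact permutation test of the difference of means was run in every window with 3 or more embryos per group. The limma procedure was checked on simulated data, and the permutation p-values against those of another implementation. Windows of the gene starts, and any past the threshold, were to be named in full. Members, lists and tests were chosen with earlier results of these data known. Lists of other imprinted genes were not analysed here, because windows could not be tied to gene names outside the domain.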

Additional observations from a re-analysis of the deposited data

Results flagged for a closer look

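Within each group, the highest and lowest embryos were compared with the others in 33 sets of 4 to 10 values, and 9 sets held an embryo far from the rest. Such a comparison marks about 1 in 20 sets where values are independent and normally spread. Here many values are exactly 0% and sets overlap, so that rate does not apply. Where all other embryos are at 1 value, any embryo that differs is marked, which held for 6 of the 9. Control replicate 10 stood apart in 3 windows at the far end of the domain, at 7.69% (from 6977245) and 13.3% (from 6979920), where the other controls were at 0%, and at 14.3% (from 6995299), where the next was at 4.17%. These windows lie close together, and the first pair overlaps. Mutant replicate 14 had 4.17% in the window from 6977245, where the other mutants were at 0%. Control replicate 4 had 50.0% in the Zim2 window, where the next control had 14.3%. Mutant replicate 12 had 50.0% in the window from 6753042 and control replicate 2 had 6.67% in the window from 6805850, where the others of their groups were at 0%. Control replicate 1 had 0.0% in the window from 6891037, where the other 3 controls were at 50.0%. The flank mean of mutant replicate 18 was 75.0%, over 2 windows, and the next mutant stood at 19.6%.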

How the results depend on the processing

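No domain window passed the threshold under any alternative that could be run. For the exact permutation test this says little, because the few embryos in a window limit its lowest p. At least 7 embryos per group, and sparsely covered embryos only, left no domain window to test. The differences were lower in mutant embryos at the Usp29 window from 6730577 except with quantile normalization (0.92 points), and at that from 6730597 except with quantile normalization (3.91 points) and with coverage as a covariate (2.41 points). At the Peg3 and Zim1 windows the direction held throughout, but the size did not, from -16.0 to -1.67 points at Peg3 and from -8.73 to -0.09 points at Zim1. Leaving out single embryos gave -16.0 to -1.73 points at Peg3, -11.7 to -3.51 and -8.91 to -0.10 at the Usp29 windows and -7.25 to -0.09 at Zim1. It gave -20.3 to -6.02 for the mean of the shared promoter, 1.83 to 8.18 for the domain, -7.26 to 1.07 for the flanks and -21.6 to -0.38 for promoter minus flanks.

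The count over all windows, 14, was 0 with at least 5 embryos (565 lower and 162 higher at an unadjusted p under 0.05). It was also 0 with the exact permutation test (1801 unadjusted), whose lowest p is limited by the few embryos in a window. It was 3 with at least 7 embryos, 1 on the arcsine scale, 30 with quantile normalization, 3 with coverage as a covariate, 4 in densely and 2 in sparsely covered embryos. With 1 embryo left out it ran from 0 to 18, with 0 without mutant replicate 12 (837 lower and 810 higher unadjusted in limma), 4 and 5 without control replicates 3 and 4, and 9 and 6 without mutant replicates 11 and 14. The cause was not tested. No paired analysis was possible because mother and litter were not given. The replicate numbers (1 to 10 in controls, 11 to 20 in mutants) only label separate blastocysts. With few embryos per window, a wide spread between them and unknown depth, even large differences could fail the correction. Differences within the intervals above are not excluded.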

Other observations

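Among the 41 tested flank windows, 1 had an unadjusted p under 0.05 in limma. It lies 323.8 kb from the Peg3 start (6407884 to 6411383), was chosen after its values were seen, and averaged 69.6% ± 15.0 (SD, n = 5) over controls against 31.8% ± 27.6 (SD, n = 3) over mutants. The difference of -37.8 points (SE 13.5) failed the correction (limma adjusted p = 0.761).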
